A study of Schmidtea mediterranea with 14 samples.

Results

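Ion channels and transmitter receptors carry electrical and chemical signals, and 35 transcripts of the planarian *Schmidtea mediterranea* with such a human best hit, or with a hit to a protein of membrane fusion, were followed through knockdown of the apolipoprotein B orthologs *apob-1* and *apob-2*. Members were chosen by the symbol of their closest human protein: potassium (KCN), calcium (CACN), sodium (SCN), cyclic nucleotide-gated, TRP and acid-sensing channels, receptors for GABA, glycine, glutamate, acetylcholine, serotonin, dopamine, adrenaline and neuropeptide Y, and synaptotagmins, SNAPs, syntaxins and other symbols that start with SYN, except SYNE. Best hits came from the rows of the study's annotated result tables used here, which named one for 1993 of the 28069 transcripts counted. Of 36 matches, 35 reached 1 CPM (the count scaled to library size) in at least 4 of 14 libraries, out of 18436 transcripts that did. HTRA1, a serine protease matched by the letters of its symbol, reached it in 0 libraries. By human best hit, 27 of the 35 are ion channels, subunits of channels or receptors, GRIA4 with less certainty because of its fly hit. Another 7 are proteins of membrane fusion and vesicle traffic, and GLRX, a glutaredoxin, was matched by letters alone. The rows used were ordered by identifier or by the outcome of other experiments, so these transcripts are not a random sample of the planarian's channels, and no sequences are shown.

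RNA was sequenced from whole, uninjured animals of the asexual clonal line CIW4, in pools of 5 to 6 animals per library. All animals were fed dsRNA 3 times and starved for 7 days. The 6 control libraries came from animals fed dsRNA of *egfp*, a gene planarians lack. The 4 *apob-M* and 4 *apob-S* libraries came from animals fed dsRNA of the pair *apob-1* plus *apob-2* and then sorted by mild (*apob-M*) or severe (*apob-S*) loss of pigment, so these groups were not assigned at random. Total counts ran from 16839133 to 23039326 per library. Levels are given as normalized CPM, after TMM scaling. The target *apob-1* did not overlap control in either knockdown group (log2 fold change −2.41 in mild and −2.29 in severe), nor did *apob-2* (−1.43 and −1.67). The transcript dd_Smed_v6_4_1_1 took 7.28% of the counts in *apob-M* library 3 and 5.36% in *apob-S* library 2, against at most 2.43% in the others, and counts of calls are also given without these libraries.

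Channels open to a voltage, a ligand, calcium or a mechanical stimulus and let ions cross the membrane, while G protein-coupled receptors signal through second messengers. In planarians such proteins are known from the brain and ventral nerve cords, muscle, sensory cells and the excretory system. Vesicle fusion needs SNARE proteins such as syntaxins, their partners of the Munc18 family, and synaptotagmins, which sense calcium. In RNA from whole animals, fewer cells of a type and less RNA per cell cannot be told apart. Transcripts that share a human hit are named by their number in the assembly, so that TRPM2-10029 is dd_Smed_v6_10029_0_1.

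Severe loss of pigment went with more changes than mild loss did, among these transcripts as among all transcripts tested. In *apob-M* 8 of 35 were called changed against control by edgeR's quasi-likelihood test (adjusted p under 0.05), 5 higher and 3 lower (7.05% and 8.24% of all transcripts tested). In *apob-S* 17 of 35 were called, 6 higher and 11 lower (13.5% and 15.7% of all). Between *apob-S* and *apob-M*, 3 were higher and 8 lower in *apob-S* (5.17% and 6.86% of all). Among all 18436 transcripts the shares called were 15.3%, 29.3% and 12.0%, against 22.9%, 48.6% and 31.4% of the members. Among the 1936 transcripts that had a human best hit in the same rows they were 21.3%, 39.9% and 18.4%. In *apob-M* and *apob-S* the members stood nearer to these transcripts, from which they were drawn, than to all transcripts. The 61 transcripts of related lists, described below, were called about as often as the members (26.2%, 47.5% and 29.5%), so these shares are not particular to the members. In *apob-S* 31.4% of the members were called lower, against 15.2% of those 1936 and 15.7% of all transcripts, and 17.1% were called higher, against 24.7% and 13.5%. The members' median log2 fold changes in *apob-M* and *apob-S* were 0.0567 and −0.0545, against −0.00252 and −0.00269 over all transcripts. Over the 1936 with a human best hit they were 0.0156 and 0.044. The comparisons share their control libraries. Without the SYT7 homolog, which passed the filter only through *apob-S* libraries, the counts were 8, 16 and 10 of 34. Without *apob-M* library 3 and *apob-S* library 2 they were 6, 17 and 8 of 34, the SYT7 homolog no longer passing the filter. The count in *apob-M* rested on few libraries: it was 4 without *apob-M* library 1 and 5 without *apob-M* library 2 or *apob-M* library 3.

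**Figure D1:**
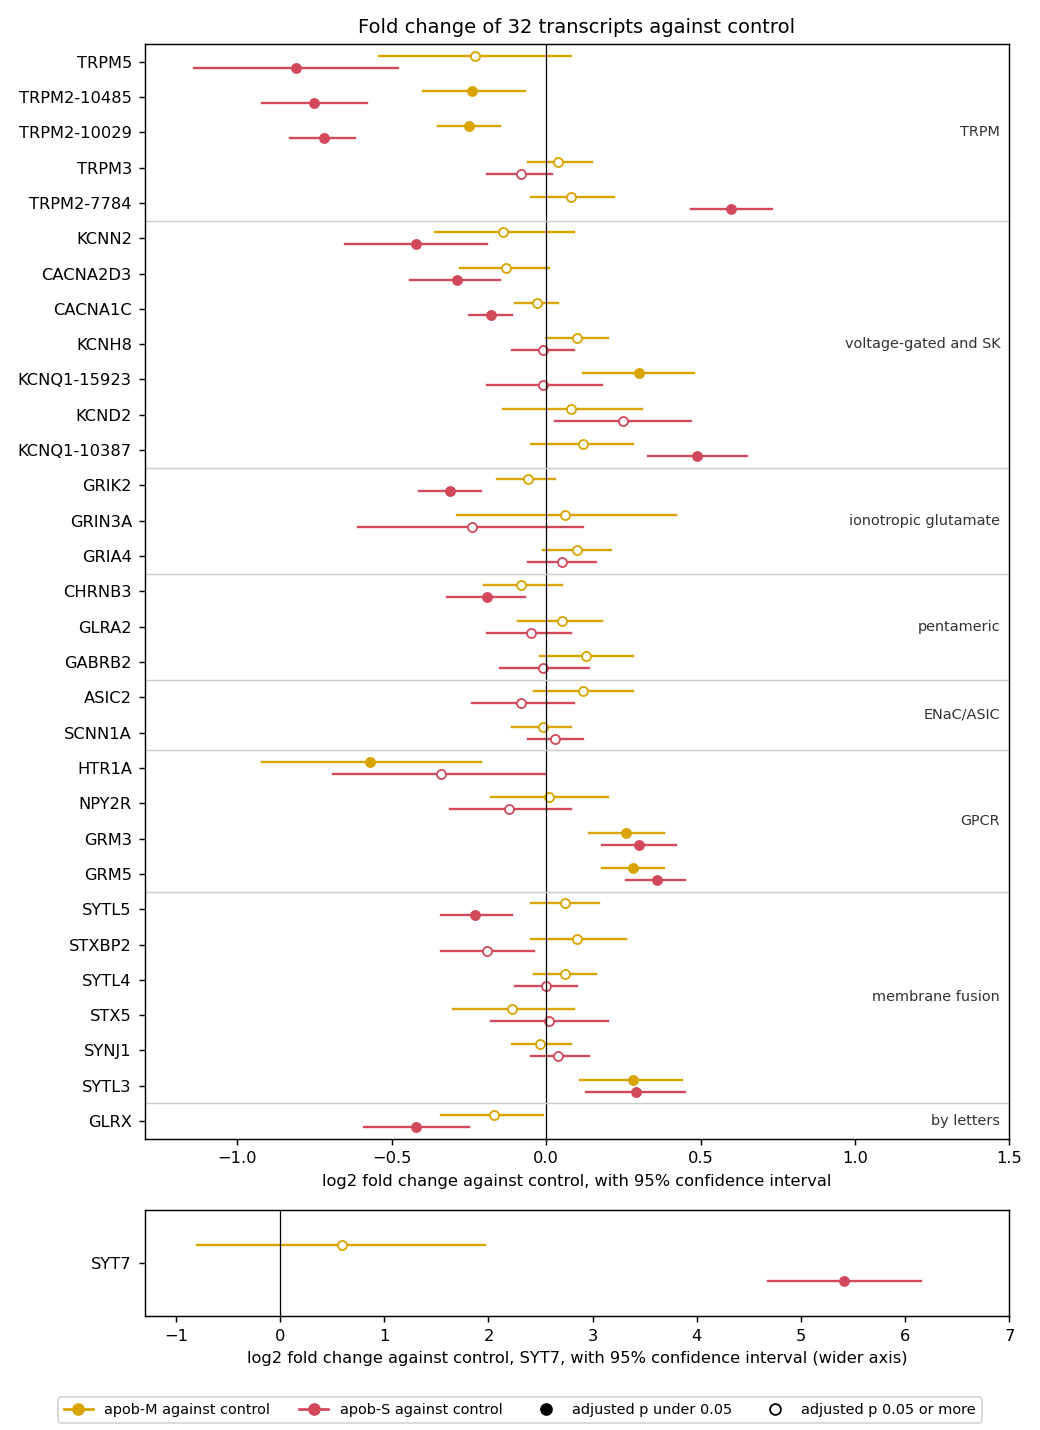
Log2 fold change against control for 32 of the transcripts, grouped by role, with 95% confidence intervals from the edgeR fit; filled points have an adjusted p under 0.05, and SYT7 has a wider axis of its own. The TRPM homologs spread from −0.81 (TRPM5) to 0.60 (TRPM2-7784) in *apob-S*, and 16 of the 32 *apob-S* points are filled against 7 in *apob-M*. Of all transcripts tested 29.3% were called in *apob-S* and 15.3% in *apob-M*.

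The TRPM homologs split in direction in *apob-S*, with 3 of 5 lower, 1 higher and 1 not called. Of all transcripts tested 15.7% were lower there and 13.5% higher (15.2% and 24.7% of those with a human best hit). TRPM channels are cation channels. In mammals TRPM2 is opened by ADP-ribose and lets calcium in, and TRPM5 is opened by calcium and serves taste cells. In *Caenorhabditis elegans* the family takes part in magnesium balance, with gtl-1 and gon-2 acting in the intestine and gtl-2 in the excretory cell. The worm best hit was gtl-2 for TRPM2-10029, TRPM2-10485 and TRPM5, gtl-1 for TRPM2-7784 and gon-2 for TRPM3. The 3 transcripts that were lower are thus those with a gtl-2 hit, and the 1 that was higher has the gtl-1 hit. This grouping was noticed after the values were seen.

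TRPM2-10029 was at 44.8 to 48.9 CPM in control (median 47.1), at 36.5, 41.3, 39.5 and 41.2 CPM in *apob-M*, and at 25.8, 30.2, 27.6 and 30.7 CPM in *apob-S*. The 3 groups did not overlap, and they stepped down from control to *apob-M* to *apob-S*. Its log2 fold change was −0.25 ± 0.0486 (SE) in *apob-M* (edgeR adjusted p = 0.00145) and −0.72 ± 0.0501 (SE) in *apob-S* (edgeR adjusted p = 2.48e-09), and *apob-S* was also below *apob-M* (−0.47 ± 0.0545 SE, edgeR adjusted p = 1.17e-05). TRPM2-10485 was at 43.0 to 52.7 CPM in control (median 47.5), at 38.2, 46.5, 43.2 and 35.3 CPM in *apob-M*, and at 28.7, 33.0, 27.8 and 24.6 CPM in *apob-S*. Here *apob-S* lay below every other library while *apob-M* overlapped control. The log2 fold change was −0.75 ± 0.0804 (SE) in *apob-S* (edgeR adjusted p = 6.64e-07) and −0.52 from *apob-M* to *apob-S* (SE 0.0874, edgeR adjusted p = 0.000536). In *apob-M* the call was close to the threshold (−0.24, edgeR adjusted p = 0.0471) and was lost when any of *apob-M* libraries 1, 3 and 4, control libraries 1, 2, 3, 5 and 6 or *apob-S* libraries 1 and 3 was left out (edgeR adjusted p from 0.0551 to 0.17).

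TRPM5, at a lower level, moved the same way. It was at 5.82 to 9.12 CPM in control (median 8.42), at 6.42, 7.99, 7.66 and 5.44 CPM in *apob-M*, and at 4.19, 6.39, 4.24 and 3.58 CPM in *apob-S*. A single control library (control 5, at 5.82 CPM) was below the highest *apob-S* library, so the groups overlapped. The log2 fold change was −0.81 ± 0.156 (SE) in *apob-S* (edgeR adjusted p = 0.000523, exact permutation p = 0.019); the value in *apob-M*, −0.23, was not called (edgeR adjusted p = 0.339). *apob-S* was called below *apob-M* (−0.58, edgeR adjusted p = 0.0324), a call lost without *apob-M* library 2 or 3 or *apob-S* library 1, 3 or 4 (edgeR adjusted p from 0.0868 to 0.115).

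TRPM2-7784 went the other way. It was at 55.1 to 63.7 CPM in control (median 59.1), at 68.4, 64.1, 64.7 and 54.8 CPM in *apob-M*, and at 102, 84.0, 92.0 and 82.6 CPM in *apob-S*. Every *apob-S* library was above every other library, while *apob-M* overlapped control. The rise in *apob-S* was 0.60 ± 0.0637 (SE) on the log2 scale, or 1.52-fold (edgeR adjusted p = 5.91e-07), against 0.08 in *apob-M* (edgeR adjusted p = 0.449), and from *apob-M* to *apob-S* it was 0.52 ± 0.0706 (SE, edgeR adjusted p = 6.97e-05). In levels per kilobase, TRPM2-7784 stood at 1.43 to 1.71 times TRPM2-10029 in the 6 control libraries (median 1.61), at a mean of 2.02 ± 0.285 times in *apob-M* (SD, n = 4) and of 4.04 ± 0.743 times in *apob-S* (SD, n = 4). This ratio within a library does not depend on the scaling between libraries, and no *apob-S* library (3.40 to 5.01) reached down to the highest *apob-M* library (2.37). TRPM2-10485 kept nearly the same ratio to TRPM2-10029 in all groups, at 1.41 ± 0.119, 1.42 ± 0.166 and 1.38 ± 0.197 in the same order. Reads that map to several transcripts were counted for each, so similar transcripts can share counts. Without sequences, how far the TRPM2 homologs do so was not tested. TRPM3, which in mammals is a calcium-permeable channel opened by heat, was not called in any comparison (21.2 to 24.6 CPM in control and 21.1 to 22.8 CPM in *apob-S*, log2 fold change −0.08 with a 95% confidence interval from −0.19 to 0.02).

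**Figure D2:**
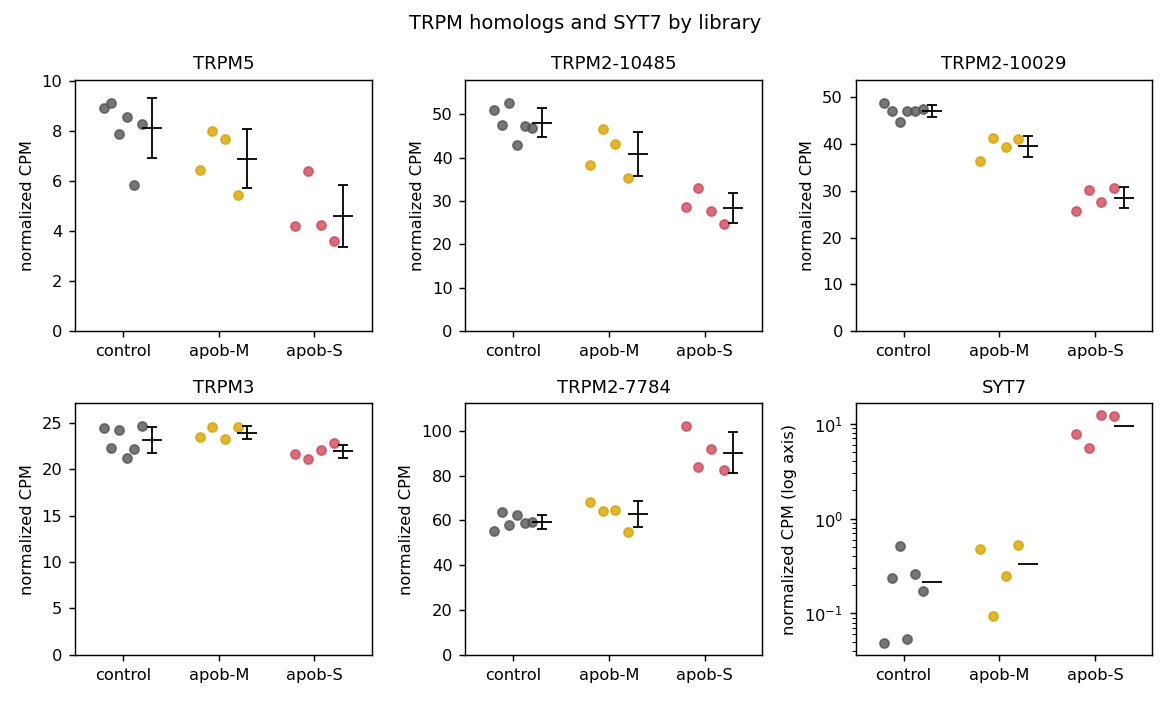
Normalized CPM by library for the 5 TRPM homologs and SYT7, in 6 control, 4 *apob-M* and 4 *apob-S* libraries; points are libraries, the line beside them is the mean with its SD, and SYT7 has a log axis with the mean alone. TRPM2-10029 and TRPM2-10485 fall below control in all *apob-S* libraries, TRPM2-7784 lies above at 82.6 to 102 CPM, and SYT7 reaches 5.59 to 12.4 CPM in *apob-S* only.

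Markers of other tissues moved in the same libraries. Of the muscle markers in a list of 7, 4 were lower and 1 higher in *apob-S* (15.7% and 13.5% of all transcripts), and their summed level was 342 to 361 CPM there against 370 to 385 CPM in control. The pharynx marker laminin fell from 53.8 to 76.1 CPM in control to 30.3 to 32.3 CPM in *apob-S* (log2 fold change −0.97, edgeR adjusted p = 1.74e-07). The marker of early epidermal progeny, prog-1, fell as well (−0.75, edgeR adjusted p = 3.19e-08). Of the neuron markers, also 7, 1 was called higher and 0 lower in *apob-S*, with a median log2 fold change of −0.0628, and their summed level was 338 to 349 CPM against 330 to 346 CPM in control. The intestine marker ctsla was at 1640 to 1960 CPM in *apob-S* and at 1700 to 1930 CPM in control and was not called (edgeR adjusted p = 0.69). The part of these changes in those of the channels was not tested.

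Among the 8 homologs of voltage-gated, calcium-activated and related channels, 3 were lower and 1 higher in *apob-S* (15.7% and 13.5% of all transcripts). In *apob-M* 2 were higher and 0 lower (7.05% and 8.24% of all transcripts). The 2 homologs of KCNQ1, a voltage-gated potassium channel that repolarizes heart muscle and epithelia in mammals, moved in different groups. KCNQ1-10387 was at 18.6 to 21.7 CPM in control (median 20.4), at 20.2, 21.6, 24.2 and 21.7 CPM in *apob-M*, and at 29.7, 25.1, 33.5 and 25.0 CPM in *apob-S*. All *apob-S* libraries were above the rest, and the log2 fold change there was 0.49, or 1.41-fold (SE 0.0755, edgeR adjusted p = 4.93e-05). It was 0.12 in *apob-M* (edgeR adjusted p = 0.36), and *apob-S* was above *apob-M* (0.37 ± 0.083 SE, edgeR adjusted p = 0.00485).

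KCNQ1-15923 was at 10.1 to 15.0 CPM in control (median 13.2), at 16.9, 16.5, 15.7 and 15.9 CPM in *apob-M*, and at 14.1, 12.6, 12.0 and 13.8 CPM in *apob-S*. Its *apob-M* libraries were above all others, and *apob-S* lay within the control range. Its log2 fold change came to 0.30 ± 0.0854 (SE) in *apob-M* (edgeR adjusted p = 0.0203) and −0.01 in *apob-S* (95% confidence interval −0.19 to 0.18), with *apob-S* below *apob-M* (−0.31, edgeR adjusted p = 0.0353). The call in *apob-M* was lost without *apob-M* library 1 or 2 (edgeR adjusted p = 0.0581 and 0.0505). That between *apob-S* and *apob-M* was lost without *apob-M* library 1, 2 or 4 or *apob-S* library 2 or 3 (edgeR adjusted p from 0.0613 to 0.113).

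The calcium channel homologs and the SK channel homolog were lower in *apob-S*. CACNA1C, in humans the pore of the L-type calcium channel that couples excitation to contraction in muscle, was at 58.8 to 64.1 CPM in control (median 61.5), at 60.2, 59.6, 60.4 and 60.6 CPM in *apob-M*, and at 53.3, 54.3, 55.6 and 54.0 CPM in *apob-S*. The fly best hit of this transcript was Ca-alpha1D and its worm best hit unc-2, so its type among calcium channels is uncertain. The change in *apob-S* was small and the libraries close together, with none overlapping control or *apob-M* (−0.18 ± 0.0339 SE on the log2 scale, edgeR adjusted p = 0.00042; against *apob-M* −0.15, edgeR adjusted p = 0.011, and 0.0682 by edgeR's exact test). CACNA2D3, an auxiliary α2δ subunit that helps calcium channels reach the membrane, was at 31.6 to 34.5 CPM in control (median 33.3), at 34.0, 33.7, 25.6 and 28.0 CPM in *apob-M*, and at 28.9, 27.0, 28.4 and 23.9 CPM in *apob-S*. Its *apob-M* libraries split, with 2 inside the control range and 2 below it. On the log2 scale the change was −0.29 ± 0.0703 (SE) in *apob-S* (edgeR adjusted p = 0.00328), against −0.13 in *apob-M* (edgeR adjusted p = 0.235), and *apob-S* was called below *apob-M* only when *apob-M* library 3 was left out (−0.24, edgeR adjusted p = 0.0356, against −0.16 and 0.198 with it).

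KCNN2, a potassium channel opened by calcium, was at 9.55 to 11.7 CPM in control (median 10.8), at 9.04, 9.44, 8.74 and 12.3 CPM in *apob-M*, and at 9.70, 6.64, 7.60 and 8.39 CPM in *apob-S*. *apob-S* overlapped control in 1 library, and the log2 fold change was −0.42 there (SE 0.108, edgeR adjusted p = 0.00575). It was −0.14 in *apob-M* (edgeR adjusted p = 0.445), and −0.29 between *apob-S* and *apob-M* (edgeR adjusted p = 0.138, and 0.0487 without *apob-S* library 1). Among other homologs of this role, KCND2 of the A-type current (5.15 to 6.83 CPM in control) and KCNH8 of the EAG family (24.2 to 27.3 CPM), were not called. For KCND2 the value in *apob-S* was 0.25 (log2), with a 95% confidence interval from 0.03 to 0.47 and an edgeR adjusted p of 0.089.

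Of the 3 homologs of ionotropic glutamate receptors, GRIK2 was lower in *apob-S*. The kainate receptor GRIK2, whose worm best hit is glr-1, was at 50.9 to 55.1 CPM in control (median 54.0), at 49.9, 48.5, 56.6 and 49.2 CPM in *apob-M*, and at 44.1, 44.4, 42.2 and 41.2 CPM in *apob-S*. All *apob-S* libraries were below all others, with a log2 fold change of −0.31 ± 0.0458 (SE) against control (edgeR adjusted p = 3.16e-05) and −0.25 ± 0.0499 (SE) against *apob-M* (edgeR adjusted p = 0.0024). In *apob-M* it was −0.06 (edgeR adjusted p = 0.404). GRIN3A, an NMDA receptor subunit, was at 1.49 to 1.72 CPM in control, the second lowest level of all members, and at 0.998 to 1.77 CPM in *apob-S*. Its interval in *apob-S* was wide, from −0.61 to 0.12, and no change was detectable at this depth. GRIA4 was at 26.7 to 31.9 CPM in control and differed by 0.05 on the log2 scale in *apob-S* (95% confidence interval −0.06 to 0.16). Its best hit in fly was PNPase, an RNA-degrading enzyme, so its place among the receptors is uncertain.

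The 5 pentameric receptor homologs belong to the Cys-loop family, in which the closest human protein does not fix the ligand. In *apob-S* 2 were lower, CHRNB3 among them, and 0 higher (15.7% and 13.5% of all transcripts). CHRNB3, a nicotinic acetylcholine receptor subunit, was at 27.3 to 34.7 CPM in control (median 29.2), at 25.9, 29.4, 29.6 and 28.8 CPM in *apob-M*, and at 25.7, 26.6, 25.8 and 26.7 CPM in *apob-S*. It lay just under the control range in every *apob-S* library, and its call (−0.19 ± 0.0606 SE, edgeR adjusted p = 0.0216) was lost without *apob-S* library 1 or 3 (edgeR adjusted p = 0.0596 and 0.0551). GABRB2 and the glycine receptor homolog GLRA2 were not called in any comparison, with log2 fold changes of −0.01 and −0.05 in *apob-S*. Neither were the homologs of the epithelial and acid-sensing sodium channels, SCNN1A (0.03 in *apob-S*, 95% confidence interval −0.06 to 0.12) and ASIC2 (−0.08, 95% confidence interval −0.24 to 0.09).

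The 2 metabotropic glutamate receptor homologs were higher in *apob-M* and in *apob-S*. These receptors couple glutamate to G proteins, GRM3 lowering cyclic AMP and GRM5 releasing calcium in mammals. GRM5 was at 23.7 to 26.6 CPM in control (median 25.5), at 29.5, 31.9, 32.7 and 29.1 CPM in *apob-M*, and at 34.2, 33.0, 31.2 and 31.5 CPM in *apob-S*. GRM3 was at 31.2 to 35.3 CPM in control (median 34.4), at 36.2, 44.5, 41.9 and 38.0 CPM in *apob-M*, and at 39.8, 43.8, 39.4 and 42.9 CPM in *apob-S*. For both, every *apob-M* and every *apob-S* library was above every control library, and *apob-M* and *apob-S* overlapped each other. The log2 fold change of GRM5 was 0.28 ± 0.0465 (SE) in *apob-M* (edgeR adjusted p = 0.000342) and 0.36 ± 0.0462 (SE) in *apob-S* (edgeR adjusted p = 7.08e-06). For GRM3 the values were 0.26 ± 0.0568 SE (edgeR adjusted p = 0.00382) in the mild group and 0.30 ± 0.0566 SE (edgeR adjusted p = 0.000382) in the severe. Between *apob-S* and *apob-M* the 95% confidence interval of the difference was −0.03 to 0.18 for GRM5 and −0.09 to 0.17 for GRM3.

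HTR1A was the homolog with the lowest log2 fold change in *apob-M*. Its human hit is a serotonin receptor, while its fly and worm hits, TyrR and ser-2, are tyramine receptors. It was at 3.50 to 5.02 CPM in control (median 4.17), at 2.58, 2.15, 2.77 and 4.01 CPM in *apob-M*, and at 3.17, 2.89, 3.26 and 4.16 CPM in *apob-S*. In each knockdown group 1 library (number 4) was inside the control range and 3 were below it. Its log2 fold change came to −0.57 ± 0.169 (SE) in *apob-M* (edgeR adjusted p = 0.0283) and −0.34 ± 0.165 (SE) in *apob-S* (edgeR adjusted p = 0.136), and the difference between them was 0.23 (95% confidence interval −0.17 to 0.62). The call in *apob-M* was lost without *apob-M* library 1, 2 or 3 or control library 5 or 6 (edgeR adjusted p from 0.0612 to 0.108). NPY2R, a receptor of neuropeptide Y, was at 9.88 to 13.9 CPM in control and was not called (−0.12 in *apob-S*, 95% confidence interval −0.31 to 0.08).

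**Figure D3:**
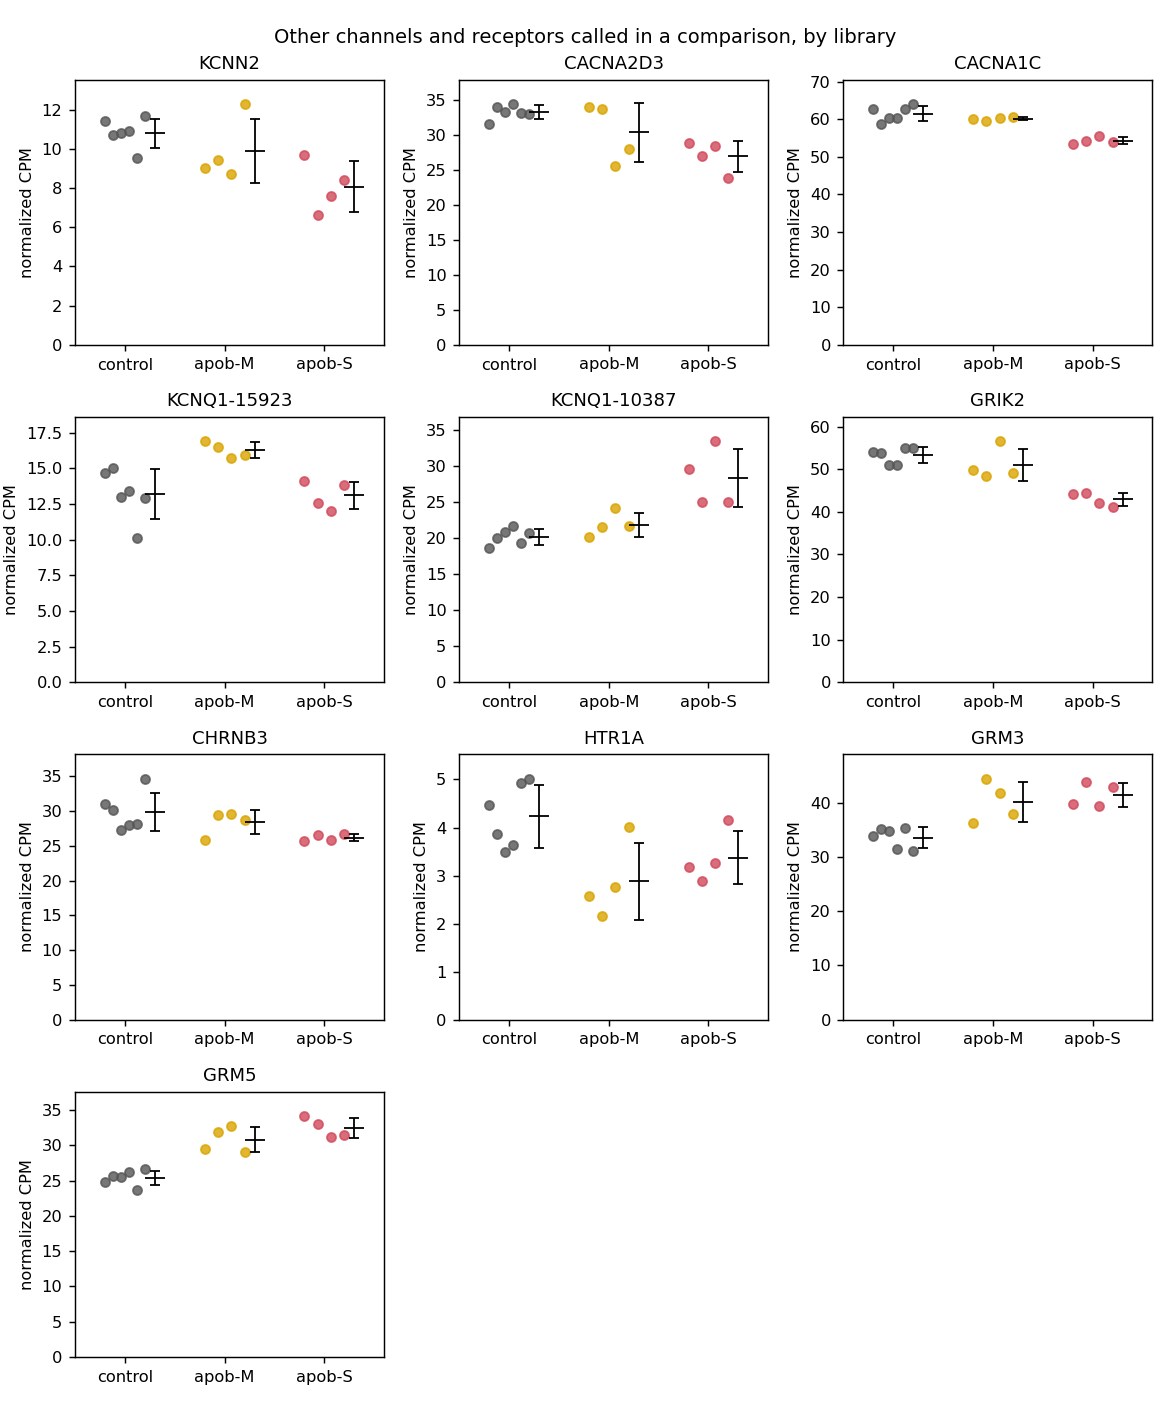
Normalized CPM by library for 10 other channel and receptor homologs called in at least 1 comparison; points are libraries, lines are means with SD, and each axis starts at 0. GRM3 and GRM5 lie above control in both knockdown groups, KCNQ1-10387 in *apob-S* (25.0 to 33.5 CPM) and KCNQ1-15923 in *apob-M* (15.7 to 16.9 CPM).

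Among the 7 homologs of fusion and trafficking proteins, SYT7 had the largest fold change of all members in *apob-S*. Synaptotagmin-7 is a calcium sensor of high affinity that acts in lysosome exocytosis and in slow transmitter release in mammals, and the fly best hit of the transcript is Syt7 as well. SYT7 was at 0.0481 to 0.513 CPM in control (median 0.203), at 0.473, 0.0935, 0.247 and 0.528 CPM in *apob-M*, and at 7.76, 5.59, 12.4 and 12.2 CPM in *apob-S*. These levels rest on 26 counts over the 6 control libraries, 26 over the 4 *apob-M* libraries and 763 over the 4 *apob-S* libraries. The lowest *apob-S* library was 10.6 times the highest library of the other groups. The fitted log2 fold change was 5.41 ± 0.35 (SE) in *apob-S* (edgeR adjusted p = 9.4e-10) and 4.83 ± 0.381 (SE) against *apob-M* (edgeR adjusted p = 2.45e-07), but only the 4 *apob-S* libraries reached 1 CPM, so a transcript that passed the filter this way had to differ. In *apob-M* the log2 fold change was 0.59 with a 95% confidence interval from −0.80 to 1.97.

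Synaptotagmin-like proteins bind Rab27 on secretory granules, and their 3 homologs differed in direction. SYTL3 was at 9.60 to 11.5 CPM in control (median 10.5), at 13.7, 13.1, 12.3 and 11.7 CPM in *apob-M*, and at 12.7, 11.3, 13.3 and 14.2 CPM in *apob-S*. It was above control in all but 1 of the 8 knockdown libraries (log2 fold change 0.28 and 0.29, edgeR adjusted p = 0.0205 and 0.00745), and the call in *apob-M* was lost without *apob-M* library 1 or 2 (edgeR adjusted p = 0.0733 and 0.0581). SYTL5 was at 19.0 to 21.3 CPM in control (median 20.1), at 20.5, 22.8, 20.0 and 20.4 CPM in *apob-M*, and at 16.4, 17.1, 17.8 and 17.4 CPM in *apob-S*. Its *apob-S* libraries were below all others (−0.23 ± 0.0535 SE from control, edgeR adjusted p = 0.00317, −0.28 ± 0.0581 SE from *apob-M*, edgeR adjusted p = 0.00263). SYTL4 was at 27.5 to 29.3 CPM in control and was not called (95% confidence interval −0.10 to 0.10 in *apob-S*).

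STXBP2, a Munc18 protein that binds syntaxins in secretory cells, was at 18.2 to 20.4 CPM in control (median 19.6), at 19.5, 21.7, 19.6 and 22.8 CPM in *apob-M*, and at 14.1, 18.9, 17.5 and 17.8 CPM in *apob-S*. The *apob-S* libraries were below all *apob-M* libraries (−0.29 ± 0.0795 SE, edgeR adjusted p = 0.0193), a call lost without *apob-M* library 2 or 4 or *apob-S* library 1 (edgeR adjusted p from 0.0671 to 0.0735). Against control the log2 fold change in *apob-S* was −0.19 (edgeR adjusted p = 0.0608, and 0.0293 without *apob-S* library 2). SYNJ1, a phosphoinositide phosphatase of endocytosis, had the highest level of all members, at 114 ± 4.45 CPM per kilobase in control (SD, n = 6), and was not called (0.04 in *apob-S*, 95% confidence interval −0.05 to 0.14). STX5, a syntaxin of the Golgi, was not called either (0.01, 95% confidence interval −0.18 to 0.20). GLRX, the glutaredoxin, was at 9.74 to 11.7 CPM in control (median 10.6), at 9.41, 10.1, 8.50 and 9.97 CPM in *apob-M*, and at 7.76, 7.68, 7.88 and 8.86 CPM in *apob-S*. All *apob-S* libraries were below control (−0.42 ± 0.0799 SE, edgeR adjusted p = 0.00048), and *apob-S* against *apob-M* (−0.24, edgeR adjusted p = 0.0816) was called without *apob-M* library 3 (edgeR adjusted p = 0.0473).

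In control the members spanned 0.142 to 114 CPM per kilobase, with a median of 8.83 against 9.79 over all transcripts tested. SYNJ1 was followed by GLRX (21.4 ± 1.68), TRPM2-7784 (18.0 ± 0.94), GRIK2 (17.7 ± 0.629) and TRPM2-10485 (15.8 ± 1.12), of which TRPM2-7784 and GRIK2 differed by less than their SD. Of the 35 members 14 were not called in any comparison, with log2 fold changes from −0.11 to 0.13 in *apob-M* and from −0.24 to 0.25 in *apob-S*. Against control 5 members were called in both knockdown groups, 3 higher in both (GRM3, GRM5, SYTL3) and 2 lower in both (TRPM2-10029, TRPM2-10485). Both comparisons use the same control libraries. The transcripts called in both groups, or in no comparison, were not counted over all transcripts. Whether the members differ in this from other transcripts was therefore not tested.

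**Figure D4:**
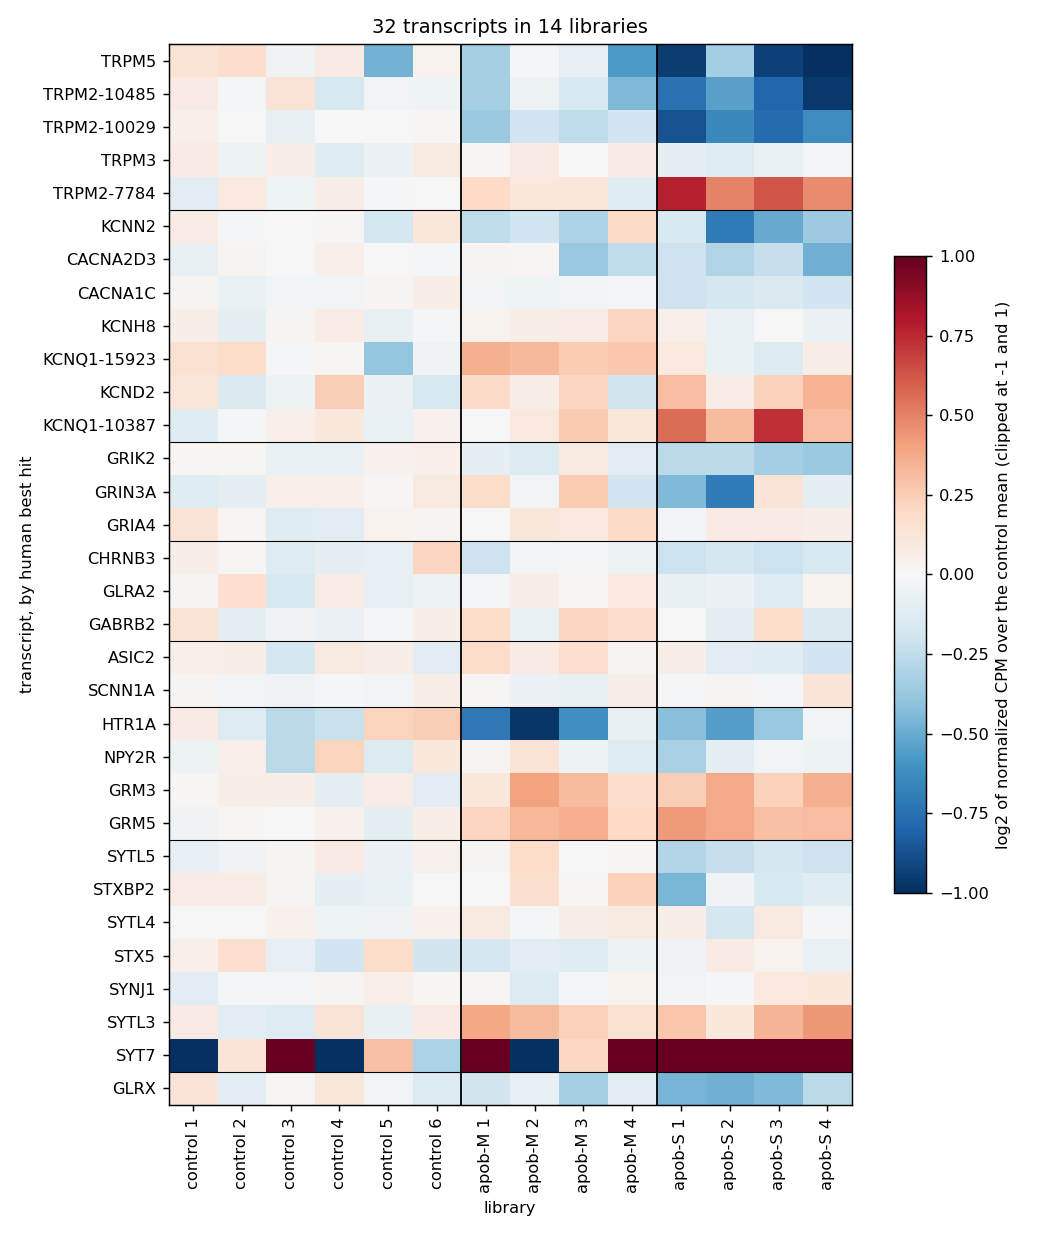
Log2 of normalized CPM over the control mean for 32 of the transcripts (rows, grouped by role) in 14 libraries (columns), clipped at −1 and 1. In *apob-S* blue rows (below the control mean) include TRPM2-10029, TRPM2-10485 and TRPM5 and red rows (above it) TRPM2-7784, KCNQ1-10387 and SYT7, with all 4 *apob-S* libraries in the same direction for each; SYT7 in the other groups rests on 26 counts per group.

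Other genes of the same pathways were described from 5 lists, which hold 61 transcripts past the filter with such a best hit. Of these, 11 were higher and 5 lower in *apob-M*, 16 higher and 13 lower in *apob-S*, and 11 higher and 7 lower in *apob-S* against *apob-M*, or 26.2%, 47.5% and 29.5% called. The shares over all transcripts were 15.3%, 29.3% and 12.0%, and over the 1936 with a human best hit 21.3%, 39.9% and 18.4%. In *apob-M* and *apob-S* the lists lay nearer to the transcripts with a hit than to all transcripts, as did the members (22.9% and 48.6%). In *apob-S*, where 13.5% of all transcripts were higher and 15.7% lower (24.7% and 15.2% of those with a hit), 5 of 10 ion pumps and exchangers were called higher and 2 lower (median log2 fold change 0.256). Of 7 receptors for peptides and adhesion G protein-coupled receptors 4 were called lower and 0 higher, and 3 were not called (median −0.14). Of the other ion channels 4 of 13 were higher and 2 lower, of the genes of transmitter synthesis, breakdown and transport 3 of 12 were higher and 3 lower, and of those of vesicle release and synapse scaffold 4 of 19 were higher and 2 lower.

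The largest increases against control included SLC6A5 (dd_Smed_v6_4290_0_1), whose human hit is a glycine transporter. It was at 38.7 to 50.9 CPM in control, at 63.1 to 71.1 CPM in *apob-M* and at 92.5 to 110 CPM in *apob-S*, with no overlap between groups (log2 fold change 0.60 and 1.15, SE 0.0713 and 0.0704, edgeR adjusted p = 9.52e-06 and 4.8e-10). The sodium-calcium exchanger SLC8A1 (dd_Smed_v6_7229_0_1) rose in steps as well, from 55.3 to 60.1 CPM in control to 67.8 to 76.9 CPM in *apob-M* and 80.0 to 90.7 CPM in *apob-S* (0.34 and 0.58, edgeR adjusted p = 6.78e-05 and 2.36e-08). Another SLC8A1 transcript (dd_Smed_v6_12990_0_1), at a lower level, did not. It was at −0.36 in *apob-M* (not called, edgeR adjusted p = 0.161) and at 0.42 in *apob-S* (edgeR adjusted p = 0.0415). ATP2A2, the calcium pump of the endoplasmic reticulum, was higher by 0.32 in *apob-M* on the log2 scale (edgeR adjusted p = 4.94e-06), and the exchanger SLC24A5 (dd_Smed_v6_17208_0_1) by 0.65 in *apob-S* (edgeR adjusted p = 8.88e-05). Another SLC24A5 transcript (dd_Smed_v6_7121_0_1), at a higher level, was lower in *apob-S* (−0.16, edgeR adjusted p = 0.0134).

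The largest decreases called in *apob-M* were those of SLC32A1, the vesicular GABA and glycine transporter (−0.37, edgeR adjusted p = 0.0445), PTH1R, a peptide hormone receptor (−0.29, edgeR adjusted p = 0.00819), and ADGRL3, an adhesion receptor of the latrophilin family (−0.24, edgeR adjusted p = 0.0211). In *apob-S* they were those of ADGRL3 (−0.56, edgeR adjusted p = 4.83e-06), the ATP-gated channel P2RX4 (−0.51, edgeR adjusted p = 0.00293) and the chemokine receptor CCR9 (−0.28, edgeR adjusted p = 0.0468). Between *apob-S* and *apob-M*, a low SLC8A1 transcript (dd_Smed_v6_12990_0_1, 0.78, edgeR adjusted p = 0.00466), SLC6A5 (dd_Smed_v6_4290_0_1, 0.55, edgeR adjusted p = 9.1e-05) and SLC24A5 (dd_Smed_v6_17208_0_1, 0.52, edgeR adjusted p = 0.00528) increased most. SVOP, a synaptic vesicle protein (−0.39, edgeR adjusted p = 0.0357), ADGRL3 (−0.31, edgeR adjusted p = 0.00977) and the pannexin PANX2 (−0.27, edgeR adjusted p = 0.0216) were lowest among those called. Of the stem cell markers, tgs-1 was higher in both knockdown groups (0.68 and 0.64, edgeR adjusted p = 0.000266 and 0.000156), and piwi-1 was not called (edgeR adjusted p = 0.798 and 0.0623). Of the neuron markers ChAT was higher in *apob-M* (0.22, edgeR adjusted p = 0.0123), while CELF3 (−0.15, edgeR adjusted p = 0.0128) and SLC32A1 were lower. Synaptophysin, SYP, was higher in *apob-S* (0.28, edgeR adjusted p = 0.000384).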

How the data were processed

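Per the labels, the study's methods and the deposited files, the authors trimmed reads, aligned them with Bowtie2 2.3.1 to the dd_Smed_v6 transcriptome and counted them with featureCounts (Subread 1.6.3), reads that map to several transcripts included, so that similar transcripts share counts. The counts deposited by the authors are not normalized. Their own fold changes and adjusted p-values were not used. Human best hits of 23 members were read from rows of the study's own results for *apob* RNAi, which were ordered by identifier. No genome or sequence was used here.

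Groups came from the sample titles. The filter was 1 CPM in 4 or more libraries, and all 14 libraries were fitted with edgeR 4.0.16 (R 4.3.3; TMM, quasi-likelihood test, group as the only term), adjusted over 18436 transcripts at 0.05. Intervals are 95% intervals from that fit. Exact permutation tests, two-sided, used log2 CPM with a prior count of 2 (SciPy 1.17.1). The smallest p they can give is 0.00952 for 6 against 4 libraries and 0.0286 for 4 against 4. Each library is a separate pool of animals. Scripts were tested on simulated counts.

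The members and lists were chosen with earlier results of these data known. The counts cover all 35 members, of which 3 are not reported singly or drawn here. Given in full were other members called in a comparison, or with a knockdown group wholly outside the control range and an absolute log2 fold change of at least 0.4, and from the lists the 3 largest increases and decreases called per comparison. Alternatives were DESeq2 1.42.0, edgeR's exact test, other scalings and filters, a replicate block, the compared groups alone, transcripts alone in their assembly component, a threshold of 0.01 and each library left out.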

Additional observations from a re-analysis of the deposited data

Results flagged for a closer look

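In 4 of 105 sets of libraries (35 transcripts in 3 groups), the highest or the lowest library stood far from the others of its group by Dixon's criterion, and chance flags about 5% of such sets. GRIK2 was at 56.6 CPM in *apob-M* library 3, above 49.9 CPM in the next. SYTL5 was at 22.8 CPM in *apob-M* library 2, above 20.5 CPM, and GABRB2 was at 18.6 CPM in the same library, below 22.0 CPM. GLRX was at 8.86 CPM in *apob-S* library 4, above 7.88 CPM.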

How the results depend on the processing

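No called fold change of a member reversed under any alternative run, while values near 0 that were not called changed sign (KCNQ1-15923 in *apob-S* ran from −0.10 to 0.03, and SYTL3 between *apob-S* and *apob-M* from −0.03 to 0.07). The count of members changed in *apob-M* (8) was 3 at an adjusted p under 0.01, and that between *apob-S* and *apob-M* (11) was 7. With each library left out in turn, 4 to 8 members were called in *apob-M*, 15 to 18 in *apob-S* and 8 to 12 between *apob-S* and *apob-M*. Every other alternative left these counts within 1.5 times, except the replicate block. The numbers do not pair the samples: deviations of same-numbered libraries correlated at −0.198 to 0.125 over 12 pairs, and 1 of 12 libraries correlated best with one of its own number. With the replicate number as a block, 5 members were called in *apob-M*, 17 in *apob-S* and 11 between them. HTR1A, SYTL3 and KCNQ1-15923 were no longer called in *apob-M* nor CHRNB3 in *apob-S*. With DESeq2's size factors, or with no filter, TRPM2-10485 was no longer called in *apob-M* (edgeR adjusted p = 0.0531 and 0.0544). Between *apob-S* and *apob-M*, CACNA1C was not called with library size alone, by edgeR's exact test or without both libraries high in dd_Smed_v6_4_1_1 (edgeR adjusted p = 0.0732, 0.0682 and 0.0508). KCNQ1-15923 was not called with library size alone or without those libraries (edgeR adjusted p = 0.0523 and 0.0936), nor TRPM5 and STXBP2 in a fit of the compared groups alone (edgeR adjusted p = 0.0512 and 0.051). In *apob-M* SYTL3 was not called with library size alone (edgeR adjusted p = 0.0612) and HTR1A without those libraries (edgeR adjusted p = 0.0768), and STXBP2 was then called in *apob-S* (edgeR adjusted p = 0.0285). The cause was not tested. Depth limits SYT7, GRIN3A and HTR1A, which have few counts.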
